A study of Homo sapiens with 4 samples.

Results

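ABC transporter genes were described in RNA-Seq of a pair of breast cancer cell lines. The members are the rows of the gene table whose symbol is ABC, a subfamily letter from A to G and a number, which gave 46 of 57815 genes. LM2-4175 was isolated from the triple-negative line MDA-MB-231 and metastasizes to the lung. Both were untreated and grown in DMEM with fetal bovine serum. Each line has 2 libraries, but the authors combined them in 1 FPKM value per gene (read fragments scaled by transcript length and library size) with a lower and an upper bound, so no difference below has a replicate check and no p-value was computed. As there is 1 derived line and 1 line of origin, a trait of lung metastasis and a trait of this one line cannot be told apart. The table holds no read counts, so precision was read from the bounds and not from depth.

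ABC proteins bind and hydrolyse ATP. Most of them are membrane pumps that move lipids, sterols, bile salts, peptides, metals or drugs across the plasma membrane or the membranes of organelles. Full transporters are 1 chain, whereas half-transporters work in pairs. Subfamilies E and F have no membrane part and act in translation. In cancer cells the family is best known for ABCB1, ABCC1 and ABCG2, pumps that export chemotherapy drugs.

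A mean of at least 0.5 FPKM over both lines was reached by 24 of the 46 members (52.2%), against 62.3% of 19403 protein-coding genes. No member lay near this limit from above, since the lowest of the 24, ABCG1, had a mean of 1.41 FPKM. The highest below it were ABCC2 with a mean of 0.454 FPKM and ABCC9 with 0.434 FPKM. The 24 members had a median level of 12.7 FPKM in MDA-MB-231 and 8.92 FPKM in LM2-4175, where all 13911 genes that passed the same limit had medians of 11.9 and 11.6 FPKM. By role, the translation factors, which are not pumps, held the largest share of the summed FPKM, though less than the other members together. Their sum counts ABCF3, which has a lower bound of 0 in both lines. The ABCE and ABCF translation factors held 39.7% of the summed FPKM of all members in MDA-MB-231 and 42.1% in LM2-4175, the ABCD half-transporters 20.7% and 21.0%, and the drug and conjugate exporters 15.8% and 13.4%. ABCE1, ABCF2, ABCD3, ABCD4 and ABCF3 held ranks 1 to 5 in both lines. Of the 23 pairs of neighbours in the order of levels, 23 had overlapping bounds in MDA-MB-231 and 22 in LM2-4175, the exception being ABCE1 above ABCF2, so most neighbours in the order cannot be ranked.

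**Figure D1:**
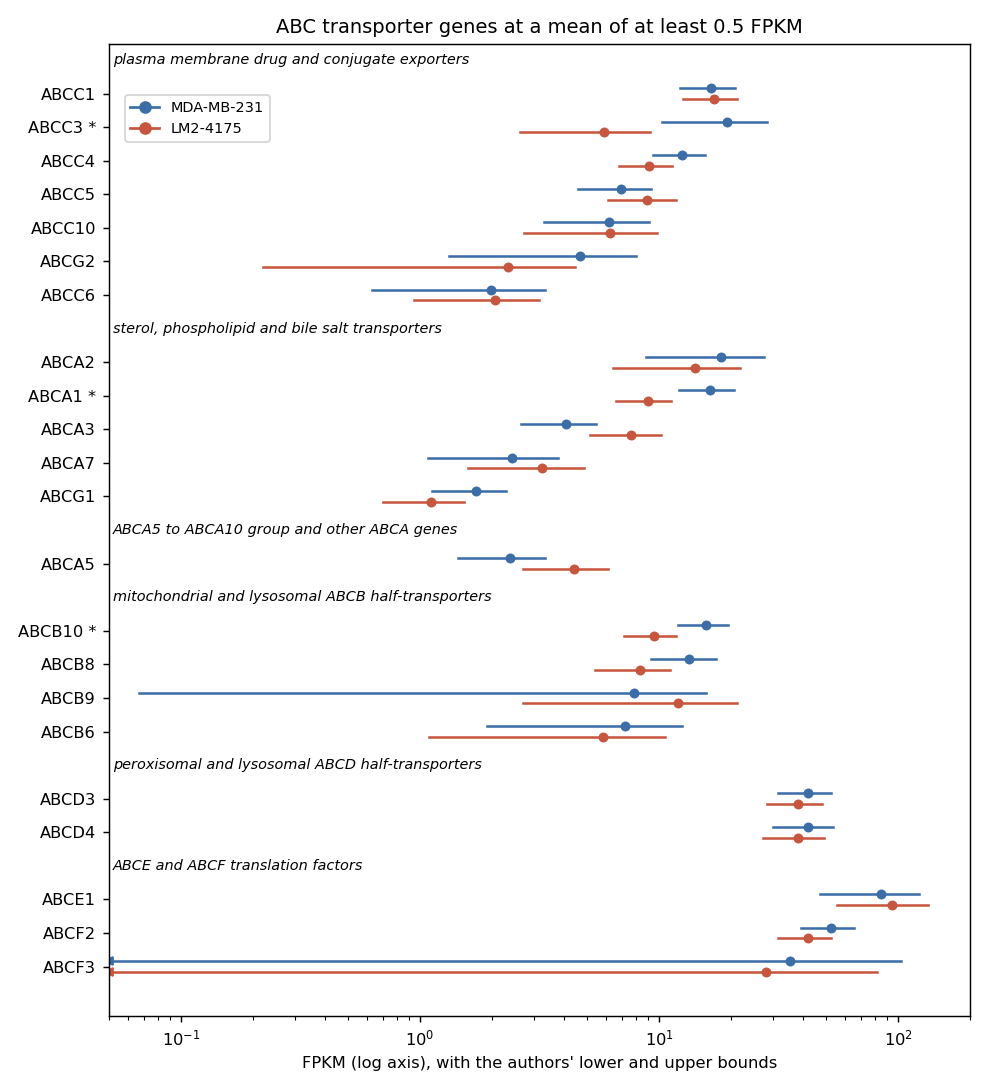
FPKM of 22 of the 24 members at a mean of at least 0.5 FPKM, on a log axis, by role. Points are the value of each cell line, lines run from the lower to the upper bound, arrowheads mark a lower bound of 0, and the 3 genes with a star had bounds apart and a change of at least 1.5-fold; ABCC3 shows the widest separation.

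Changes are log2 ratios of LM2-4175 over MDA-MB-231 after 1 was added to each FPKM, so changes of weakly expressed genes come out too small. Calls required 1.5-fold or more on this scale and separate bounds in the 2 lines. Ratios are of FPKM without the added 1, so they lie further from 1 than the log2 changes do. No ABC gene was called higher in LM2-4175, and 3 of the 24 were called lower, namely ABCC3, ABCA1 and ABCB10. Over all genes tested, 4.61% were called lower, 4.67% higher and 9.27% in either direction, so 3 of 24 (12.5%) stands beside a background of 9.27%. By the fold alone, 7 of 24 members (29.2%) changed, 2 upwards and 5 downwards, beside 22.1% of all genes. The median log2 change of the 24 members was -0.14 and that of all genes tested was -0.04, with 14 members lower and 10 higher in value. The 46 members summed to 433 FPKM in MDA-MB-231, against 389 FPKM in LM2-4175, a ratio of 0.897, while the sum over all genes had a ratio of 0.945.

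**Figure D2:**
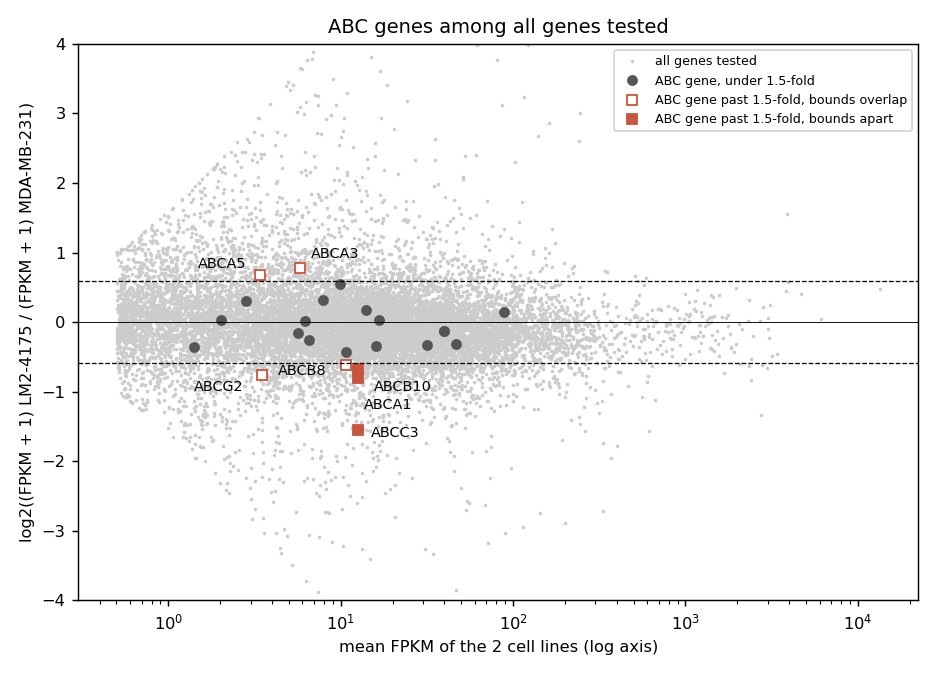
Change between the lines against mean FPKM (log axis) for all 13911 genes tested (grey) and the 24 ABC genes, with dashed lines at 1.5-fold; 37 grey points lie beyond the axis limits of 4 and -4. The 3 filled squares below the lower line are ABCC3, ABCA1 and ABCB10, and the 4 open squares are past the fold with overlapping bounds.

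The plasma membrane exporters carried the largest change of the family. ABCC3, which exports glucuronide conjugates and bile salts, reached 19.3 FPKM in MDA-MB-231 (bounds 10.3 to 28.2), compared with 5.89 FPKM in LM2-4175 (bounds 2.61 to 9.17). It was thus lower in LM2-4175 with bounds 1.11 FPKM apart, a log2 change of -1.56 and a ratio of 0.306. Its rank in the family went from 6 to 17, and its share of the summed FPKM of the 11 exporter genes from 28.2% to 11.3%. ABCC3 (chromosome 17 of GRCh37, 48712138 to 48769614, plus strand) has no exon that overlaps another gene. Of 26 protein-coding genes tested within 1 Mb, 13 were higher and 13 lower in value. These neighbours had a median log2 change of -0.0047 and 1 call, which was higher, and their part in the value of ABCC3 was not tested.

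The other exporters were not called. ABCC1, an exporter of glutathione conjugates and anthracyclines, was at 16.5 FPKM in MDA-MB-231 (12.2 to 20.8) and 16.9 FPKM in LM2-4175 (12.6 to 21.2). ABCC4, which exports cyclic nucleotides and prostaglandins, had 12.5 FPKM (9.43 to 15.5) and 9.03 FPKM (6.76 to 11.3). ABCC5, a related cyclic nucleotide exporter, had 6.91 FPKM (4.57 to 9.25) and 8.90 FPKM (6.09 to 11.7). These 3 genes differed by less than 1.5-fold with overlapping bounds. With ABCC3 lower, ABCC1 held 24.1% of the summed exporter FPKM in MDA-MB-231 and 32.4% in LM2-4175. ABCC10 changed by 0.02 on the log2 scale, at 6.16 and 6.24 FPKM. ABCC6, which supports ATP release in liver cells, was at 1.99 and 2.05 FPKM, but its partial copies ABCC6P2 (1.44 and 2.14 FPKM) and ABCC6P1 (0.162 and 0.615 FPKM) were also listed above 0, so how reads were divided among these is uncertain.

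Of the pumps best known from drug resistance, ABCG2 had 4.66 FPKM in MDA-MB-231 (bounds 1.33 to 7.99), while LM2-4175 had 2.34 FPKM (0.221 to 4.46). The values stood at a ratio of 0.503, yet their bounds overlapped over 3.14 FPKM, so no difference was called. ABCB1 was listed at 0.0528 FPKM in MDA-MB-231 with an upper bound of 0.262, and with 0.0621 FPKM in LM2-4175 with an upper bound of 0.276. ABCB1 and its neighbour on chromosome 7, the phosphatidylcholine transporter ABCB4 (0.0220 and 0.00283 FPKM), were thus not detectable above 0 by their lower bounds in either line. ABCC2, an apical exporter of conjugates, had 0.348 FPKM (0.177 to 0.520) and 0.559 FPKM (0.313 to 0.806), above 0 in both lines but under the limit of 0.5 as a mean. ABCC11 and ABCC12 had lower bounds of 0.

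Among the transporters of sterols and phospholipids, ABCA1 was lower in LM2-4175. ABCA1 moves cholesterol and phospholipid out of the cell onto apolipoprotein A-I and is induced by the liver X receptors (LXR) when sterols are plentiful. Its 16.3 FPKM in MDA-MB-231 (bounds 12.1 to 20.5) compared with 8.93 FPKM in LM2-4175 (bounds 6.61 to 11.2), so the bounds were 0.883 FPKM apart, the ratio was 0.547 and the log2 change was -0.80. The gene lies on chromosome 9 of GRCh37 (107543287 to 107690436, minus strand) with no exon shared with another gene. Of 6 protein-coding genes tested within 1 Mb, 5 were also lower in value, with a median log2 change of -0.15 and no call. The part of these neighbours in the value of ABCA1 was not tested. ABCG1, the other well-known LXR-driven sterol exporter, was low at 1.71 FPKM (1.12 to 2.29) and 1.12 FPKM (0.702 to 1.53). Its bounds overlapped, at a ratio of 0.654 and a log2 change of -0.35. Without the added 1 the log2 change of ABCG1 was -0.61, which is past 1.5-fold, but it was not called because of its bounds. ABCG4, its closest relative, stayed under the limit at 0.451 and 0.399 FPKM.

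No other lipid transporter was called. ABCA3, which loads surfactant phospholipid into the lamellar bodies of lung epithelium, had 4.06 FPKM in MDA-MB-231 (2.65 to 5.46) and 7.63 FPKM in LM2-4175 (5.13 to 10.1). This was the largest increase of the family, with a ratio of 1.88 and a log2 change of 0.77, but the bounds overlapped by 0.335 FPKM and it was not called. Its 64 protein-coding neighbours within 1 Mb were evenly split, with 32 higher and 32 lower. The defining lung epithelium genes SFTPC and SCGB1A1 were listed at 0 in both lines. ABCA2, a lysosomal lipid transporter, had 18.2 FPKM (8.77 to 27.5) and 14.1 FPKM (6.40 to 21.9), and ABCA7 had 2.43 and 3.22 FPKM. ABCA4 of the retina, ABCA12 of the skin, the bile salt exporter ABCB11 and the intestinal sterol transporters ABCG5 and ABCG8 had means of 0.122 FPKM or less.

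ABCA5, ABCA6, ABCA8, ABCA9 and ABCA10 lie side by side on chromosome 17, and ABCA5 was the 1 gene of them above the limit. ABCA5 had 2.38 FPKM in MDA-MB-231 (1.44 to 3.32) while LM2-4175 had 4.39 FPKM (2.68 to 6.10). This is a ratio of 1.85 with bounds that overlapped by 0.638 FPKM. The other genes of the cluster lay between 0.00643 and 0.135 FPKM in both lines. ABCA5 shares 2.42% of its exon bases with ABCA10 on the same strand. All 5 protein-coding genes tested within 1 Mb of ABCA5 were higher in LM2-4175, with a median log2 change of 1.25 and 1 call, against 0.67 for ABCA5 itself; their part in the value of ABCA5 was not tested. ABCA13, on chromosome 7, had 0.0640 and 0.279 FPKM.

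Most ABCB genes of the organelles were present, and ABCB10 was called lower. ABCB10 is a half-transporter of the inner mitochondrial membrane that supports haem synthesis. Its level was 15.7 FPKM in MDA-MB-231 (bounds 11.99 to 19.4) compared with 9.46 FPKM in LM2-4175 (bounds 7.14 to 11.8), giving a ratio of 0.602 and a log2 change of -0.68. The bounds were only 0.208 FPKM apart, and the call was lost when both lines were scaled to the same total (TPM, log2 change -0.62) or to a median change of 0 (log2 change -0.63). ABCB10 (chromosome 1 of GRCh37, 229652329 to 229694454, minus strand) overlaps no other exon, and its copies ABCB10P1, ABCB10P3 and ABCB10P4 were listed at 0. Among 8 protein-coding neighbours tested within 1 Mb, 6 were lower in value, with a median log2 change of -0.23 and no call. Their part in the value of ABCB10 was not tested.

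ABCB8, another mitochondrial half-transporter, fell past the fold without a call, from 13.3 FPKM (9.27 to 17.3) to 8.27 FPKM (5.41 to 11.1), with bounds that overlapped by 1.86 FPKM. In its surroundings on chromosome 7, 18 of 19 protein-coding genes tested within 1 Mb were lower in LM2-4175, with a median log2 change of -0.51 and 4 called lower, against -0.62 for ABCB8; their part in the value of ABCB8 was not tested. ABCB6, linked to porphyrin transport, had 7.19 FPKM (1.91 to 12.5) and 5.85 FPKM (1.09 to 10.6), and did not differ past the fold. The lysosomal peptide transporter ABCB9 had 7.84 and 11.9 FPKM with bounds of 0.0668 to 15.6 and 2.68 to 21.2, and 24.6% of its exon bases overlap other genes. The genes with the most overlap with ABCB9 are on the opposite strand. In ABCB6, 54.6% of exon bases overlap a transcript on the same strand.

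The ABCD half-transporters bring fatty acids into peroxisomes, except ABCD4, which works with LMBRD1 in the release of cobalamin from lysosomes. ABCD3 had 41.8 FPKM in MDA-MB-231 (31.4 to 52.2) and 38.1 FPKM in LM2-4175 (28.2 to 48.1). ABCD4 had 41.7 FPKM (29.99 to 53.4) and 38.1 FPKM (27.2 to 49.0). Both log2 changes were -0.13, and ABCD2 was close to 0 with 0.00671 and 0.0214 FPKM. Of the regulatory subunits of ATP-sensitive potassium channels, neither reached the limit. ABCC8 was listed at 0 in both lines, and ABCC9 had 0.338 FPKM (0.206 to 0.471) and 0.529 FPKM (0.349 to 0.709).

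ABCE1, which splits ribosomes after termination, was the highest member with 84.7 FPKM in MDA-MB-231 (47.1 to 122) and 93.8 FPKM in LM2-4175 (55.1 to 132). Other genes overlap 6.52% of its exon bases, and those with the most overlap are on the opposite strand. ABCF2, a cytosolic relative, had 52.0 FPKM (39.2 to 64.9) and 41.8 FPKM (31.4 to 52.2), and 37.1% of its exon bases overlap a readthrough transcript on the same strand. Neither changed past the fold. ABCF3, the third ABCF gene, had 35.1 and 27.8 FPKM, but its bounds ran from 0 to 102 and from 0 to 81.6. The table places ABCF3 in 1 locus with 22 other genes. No change of ABCF3 could be read from such bounds.

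ABCF1, which binds the initiation factor eIF2 and is used by most cells, was listed at 0.000833 FPKM in MDA-MB-231, and LM2-4175 had 0. The same was seen for the genes around it. On chromosome 6 of GRCh37, ABCF1 (30539170 to 30564956, plus strand) lies in a run of 66 neighbouring protein-coding genes, from 28399707 to 31107869, of which none reached a mean of 0.5 FPKM and 55 were listed at 0 in both lines. A second run of 85 genes, from MICA to HLA-DMA, held the peptide transporter genes TAP1 and TAP2, which belong to subfamily ABCB under other symbols. TAP1 was listed at 0 in both lines, and both rows of TAP2 at 0.00115 FPKM or less. These were the 2 longest runs of the kind over all chromosomes. The next, on chromosome 11, held 65 genes, so its length does not set the ABCF1 run of 66 genes apart. Of the 151 genes in both runs, 81.5% were listed at 0, compared with 12.1% of the 19252 protein-coding genes elsewhere. The runs were defined by means under 0.5 FPKM, which by itself raises the first share. Of the genes elsewhere, 62.8% reached that mean, so the 2 shares are not from like sets. The tubulin gene TUBB and the class I gene HLA-E, both inside the first run, were at 0, whereas B2M, the partner chain of HLA-E on chromosome 15, had 1922 and 1704 FPKM. No absence of RNA is read from the values of ABCF1, TAP1 or TAP2, and the cause of the runs was not tested. CFTR, the third family member with another symbol, lies on chromosome 7 and had 0.0723 and 0.0692 FPKM.

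**Figure D3:**
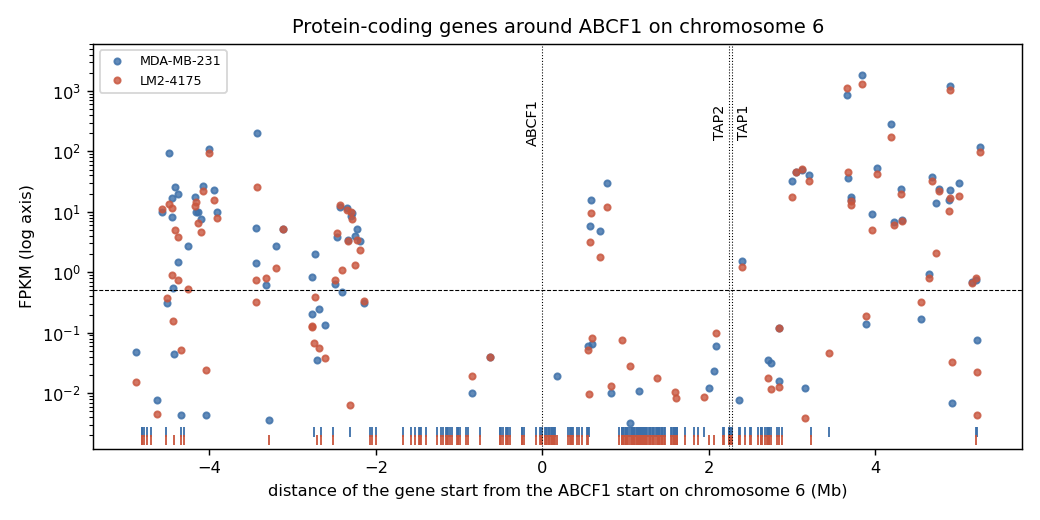
FPKM (log axis) of protein-coding genes on chromosome 6 against the distance of their start from that of ABCF1, with ticks at the bottom for values of 0.003 FPKM or less and a dashed line at 0.5 FPKM. Most genes from ABCF1 to TAP1 sit on the bottom ticks in both lines, and a few between the runs lie above the dashed line, as do many genes on either side.

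The 22 members below the limit are thus ABCF1 and 21 others. Of the 22, 16 had a mean under 0.1 FPKM and 18 had a lower bound of 0 in both lines. In all, 4 were listed at 0 in LM2-4175 (ABCC8, ABCF1, ABCG5 and ABCC13), and ABCC8 also in MDA-MB-231. ABCC13 is annotated as a pseudogene.

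Promoter sequences of 35 members, among them 19 of the 24 above the limit, were found in RefSeq on GRCh38.p14. Shown are the 250 bases before the start of ABCA1 and ABCB10, which were lower in LM2-4175, and of ABCA3, the member with the largest increase in value. ABCC3 is not among the 35. Capitals mark the GC box GGGCGG, the E-box CACGTG and a direct repeat of AGGTCA with a spacer of 4 bases, the kind of element that LXR binds, in which 2 of the 12 fixed letters were allowed to differ, each searched on both strands.
ABCA1 (chr9:104928156-104928405, minus strand): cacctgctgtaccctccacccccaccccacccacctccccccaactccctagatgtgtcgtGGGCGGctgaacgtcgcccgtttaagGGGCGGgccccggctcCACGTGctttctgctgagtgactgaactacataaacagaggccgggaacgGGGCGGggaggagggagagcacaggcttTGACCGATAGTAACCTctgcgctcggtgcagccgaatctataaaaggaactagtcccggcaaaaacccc
ABCB10 (chr1:229558708-229558957, minus strand): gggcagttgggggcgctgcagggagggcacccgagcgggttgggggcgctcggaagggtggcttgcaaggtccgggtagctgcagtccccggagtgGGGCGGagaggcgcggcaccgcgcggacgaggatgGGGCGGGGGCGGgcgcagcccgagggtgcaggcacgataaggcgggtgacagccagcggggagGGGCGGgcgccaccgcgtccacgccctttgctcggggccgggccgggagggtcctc
ABCA3 (chr16:2340729-2340978, minus strand): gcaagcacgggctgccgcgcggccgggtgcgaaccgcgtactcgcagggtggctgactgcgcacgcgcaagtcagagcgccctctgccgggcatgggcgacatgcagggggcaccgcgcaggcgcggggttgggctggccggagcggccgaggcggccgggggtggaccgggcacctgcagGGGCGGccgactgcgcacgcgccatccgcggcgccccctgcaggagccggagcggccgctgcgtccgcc
The ABCA1 promoter held 3 GC boxes, an E-box at 147 to 142 bases before the start and the repeat at 69 to 54 bases on the minus strand. ABCB10 held 4 GC boxes, 2 of them side by side, and ABCA3 held 1. Matches to the repeat were present in 2.03% of 35116 promoters of the same length and in 3 of the 35 members (ABCA1, ABCC6 and ABCD2), the E-box in 6.34% and in 4 members, and the GC box in 42.6% and in 18 members. A match says that these letters are present, not that a factor binds there.

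Genes that work with the family were counted from lists. Of 11 genes tested among the sterol efflux partners and LXR response, 10 were lower in value in LM2-4175, with a median log2 change of -0.41, and 1 was called lower. Over all genes tested, 7585 of 13911 were lower in value. The 1 call is 9.09% of the list, beside 4.61% of all genes called lower and 9.27% called in either direction. By the fold alone, 2 of the 11 (18.2%) changed, both downwards, beside 22.1% of all genes. The rest of the list was under 1.5-fold. The gene called was SCARB1, the receptor that exchanges cholesterol with high-density lipoprotein, at 26.6 FPKM (19.8 to 33.3) and 14.2 FPKM (10.1 to 18.2). NPC2, which carries cholesterol out of lysosomes, had 301 FPKM (212 to 390) and 183 FPKM (127 to 239.5) with overlapping bounds. NR1H3 and NR1H2, which encode the LXR proteins, had 10.8 and 37.7 FPKM in MDA-MB-231 and 7.79 and 32.7 FPKM in LM2-4175 with overlapping bounds. RXRB was listed at 0 in both lines, and it lies on chromosome 6 just beyond the second run, where its neighbours COL11A2 and SLC39A7 were also listed at 0, so no absence of RNA is read from it either. Of 16 genes of glutathione synthesis and conjugation, which make the substrates of ABCC exporters, 4 (25%) were called lower and none higher. Their median was -0.45, and all genes tested had 4.61% called lower and 9.27% in either direction. The 4 called were GSTP1 (427 and 190 FPKM), GSTK1 (91.9 and 45.2 FPKM), GSTM4 (30.5 and 17.0 FPKM) and the reductase gene GSR (24.4 and 13.4 FPKM). Of the 16, 11 were lower in value and 5 higher, of which 1 was past the fold with overlapping bounds. GSTM1, GSTM2 and GSTM4 are close copies, so the division of reads among them is uncertain.

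Of 19 genes of haem and iron-sulphur cluster synthesis, FECH, the ferrochelatase that inserts iron into haem, was the 1 called, from 15.6 FPKM (8.71 to 22.6) to 5.74 FPKM (2.83 to 8.64), with bounds 0.0636 FPKM apart. CPOX, another enzyme of haem synthesis, had 62.6 FPKM (37.5 to 87.6) and 25.9 FPKM (13.8 to 38.0), with overlapping bounds. SLC25A37, the mitochondrial iron importer that ABCB10 binds, went the other way in value, from 35.2 FPKM (21.9 to 48.4) to 68.7 FPKM (45.3 to 92.1), with overlapping bounds. The list had a median of -0.12. None of 11 peroxisomal and cobalamin partners was called (median 0.01), with overlapping bounds for LMBRD1, at 10.93 and 11.999 FPKM. The largest change among them was that of HSD17B4, an enzyme of peroxisomal fatty acid oxidation, from 39.6 FPKM (26.9 to 52.4) to 73.3 FPKM (49.5 to 97.1) with overlapping bounds. Of 10 ribosome recycling and eIF2 partners, EIF2S3 alone was called, from 106 FPKM to 44.3 FPKM, and the median was -0.10. The haem, peroxisomal and ribosome lists had 5.26%, 0% and 10% of their genes called, beside 9.27% of all genes tested. Among the partners of ABCC8 and ABCC9, KCNJ8 had 0.388 and 0.753 FPKM with lower bounds of 0, and KCNJ11 stayed at 0.0820 and 0.113 FPKM.

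**Figure D4:**
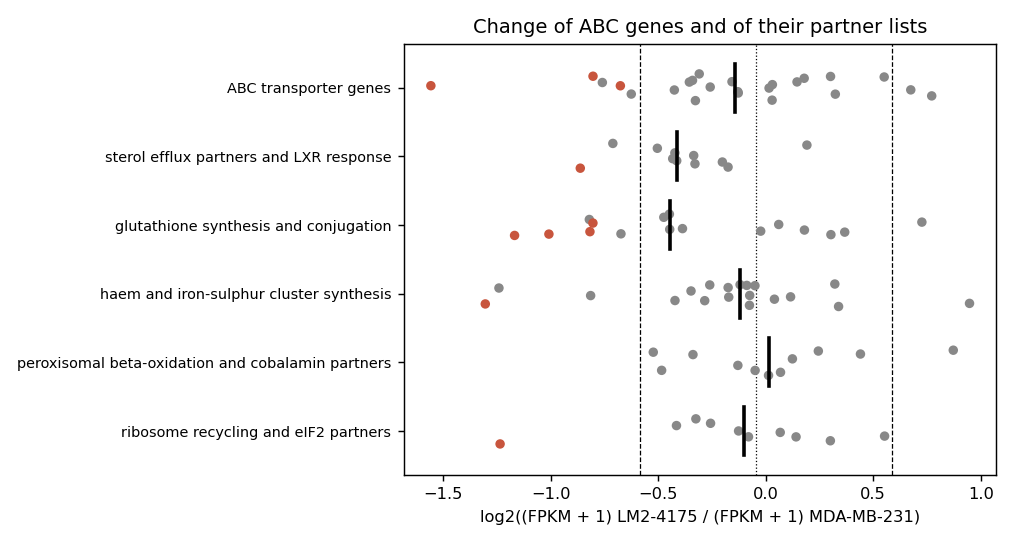
Log2 change of the ABC genes and of 5 partner lists, 1 point per gene tested, with red points for genes called, black bars for medians, dashed lines at 1.5-fold and a dotted line at the median of all genes tested (-0.04). The sterol and glutathione lists have medians of -0.41 and -0.45, and the other lists lie between -0.14 and 0.01.

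Marker genes of cell types were read in both lines, which cannot show that the labels LM2-4175 and MDA-MB-231 are right. ESR1 and PGR were at 0.0331 FPKM or less in both lines. ERBB2, foreseen as low in a triple-negative line, had 34.95 and 22.8 FPKM, above the medians of all genes tested (11.9 and 11.6 FPKM). VIM had 1355 and 1768 FPKM, and CD44 had 470 and 355 FPKM. The epithelial genes EPCAM and KRT18 were called lower in LM2-4175, at 12.3 and 4.93 FPKM and at 448 and 181 FPKM. Of 5 white blood cell markers, CD14 alone reached 0.5 FPKM (1.17 and 1.75 FPKM), PTPRC had 0.0767 and 0.0263 FPKM, and CD3E was listed at 0. Of 7 markers of endothelium, fibroblasts, lung epithelium, liver and red cells, 2 reached a mean of 0.5 FPKM, namely the liver gene ALB (7.48 and 8.49 FPKM) and the fibroblast gene LUM, which was called lower (1.34 and 0.178 FPKM). Their part in the results was not tested.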

How the data were processed

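Total RNA of both cell lines was sequenced with TruSeq libraries on a HiSeq instrument with paired reads of 150 bases. The authors aligned reads to hg19 with TopHat 2.0 and quantified GENCODE 19 genes with Cufflinks. They deposited 1 FPKM per gene and cell line with its bounds and a status per line. Cuffdiff is named in the submitters' processing notes, and the paper called genes between lines with it, at 1.5-fold or more and a q-value limit. Those calls were not used here. What level the bounds cover and whether strand was used are not given in the sources used here. The labels do not say that the 2 libraries of a line came from separate cultures, and they share 1 column, so per-library values were not analysed here. Genes with an OK status and a mean of at least 0.5 FPKM were tested (13911), with a pseudocount of 1; a call needed 1.5-fold and bounds apart. Calculations used Python 3.11.15, NumPy 2.4.6, pandas 2.3.3 and Matplotlib 3.10.9 and were tested on simulated data. The simulated noise was narrower than the bounds and had no spread between libraries. It checked the calculations only and gives no rate of false calls for these data. Positions and overlaps came from GENCODE 44 on GRCh37, the same build as hg19, to which all 46 members and 55535 of 57815 rows were matched by Ensembl ID. Overlaps were thus not those of the GENCODE 19 genes that were quantified. By the authors' loci, 19 of the 24 members tested share a locus with another gene. The locus of ABCA1 holds 1 other gene and that of ABCB10 holds 2, whereas that of ABCC3 holds none. Members above the limit were named with values, except some that are counted but not reported here, and the others by range, with at most 4 genes of a list, those called and those with the largest changes, and a few picked after their values were seen (NR1H2, NR1H3, RXRB, LMBRD1, TUBB, HLA-E, B2M). The members and lists were chosen with earlier results of these data known. EEF1A1, a gene that all cells use, was listed at 0 with a failed status, so genes at 0 are only said to be listed at 0. PECAM1 was not analysed here.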

Additional observations from a re-analysis of the deposited data

How the results depend on the processing

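ABCC3 and ABCA1 were called lower in LM2-4175 under a pseudocount of 0.1 or none, no filter, a mean of at least 1 or 5 FPKM, the bounds alone, TPM and a median change of 0, and ABCB10 under the same settings except the last 2. With a fold of at least 2, the members called lower dropped from 3 to 1 (ABCC3), and all genes called lower to 403. With a mean of at least 5 FPKM, the genes called higher were 321 instead of 649. The fold alone gave 2 members higher and 5 lower, and 1434 and 1640 genes. The fold alone with a median change of 0, chosen after seeing the data, gave 3 members higher and 4 lower (1574 and 1445 genes), and on TPM 3 and 4 (1861 and 1486 genes), where ABCB9 joined ABCA3 and ABCA5 and ABCB8 dropped out. Without the filter the median change of the members was 0.0044 over 45 members. No paired analysis was possible because the libraries of a cell line share 1 column, and leaving out a library could not be run for the same reason. For the 24 members, the median distance from value to bound was 38.1% of the value (MDA-MB-231) or 38.0% (LM2-4175).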

Other observations

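Other rows named after the family were not counted as members because they are pseudogenes or antisense genes. Of 15 such rows, ABCA11P had 4.17 FPKM in MDA-MB-231 (bounds 1.44 to 6.89) and 2.78 FPKM in LM2-4175 (0.850 to 4.71), and ABCC6P2 had 1.44 FPKM (0.683 to 2.20) and 2.14 FPKM (1.15 to 3.14). ABCA17P, which lies next to ABCA3, had 0.167 and 0.0732 FPKM, while the copies of ABCF2 and ABCB10 were listed at 0. The bounds of ABCA11P and ABCC6P2 overlapped between the lines.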
